A study of Mus musculus with 2 samples.

Results

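The NK lectin-like receptor genes described here were Klra4, Klra7, Klra8, Klra9, Klrb1c, Klrc1, Klrc2, Klrd1, Klre1 and Klrk1. They were chosen by name, as 10 of the 24785 genes listed in either count table and 10 of the 26 genes whose symbol starts with Klr, and all 10 were present in both tables. The data were 2 single-cell RNA-seq libraries of living CD45+ cells sorted from the lungs of adult wild-type C57BL/6N mice, matched for age and sex. The BLM library came from lungs taken on day 15 after intratracheal bleomycin, which causes lung injury and then fibrosis, and the naive library came from untreated lungs. Cells of 3 mice were pooled in equal number for each library, and the mouse of a given cell was not known here. Since each group is a single library, nothing was replicated or tested, every interval below covers counting error only, and the UMIs of a single cell are not independent of each other. Mouse group, library preparation and sequencing run cannot be told apart.

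These genes encode C-type lectin-like proteins on the surface of natural killer (NK) cells, innate lymphocytes that kill infected, stressed or transformed cells, and they lie together in the NK gene complex. An NK cell weighs signals from activating receptors against signals from inhibitory receptors that recognise MHC class I on healthy cells. The Klra genes encode the Ly49 receptors: Klra4 (Ly49D) and Klra8 (Ly49H, which binds the cytomegalovirus protein m157) are activating, whereas Klra7 (Ly49G) and Klra9 (Ly49I) are inhibitory. Each NK cell switches on its own subset of Ly49 genes. Klrb1c encodes the NK marker NK1.1. Klrc1 (NKG2A, inhibitory) and Klrc2 (NKG2C, activating) each pair with Klrd1 (CD94) and bind the non-classical MHC molecule Qa-1. Klrk1 (NKG2D) is an activating receptor for stress-induced ligands, and Klre1 pairs with Klri1 or Klri2.

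In GRCm38, with gene positions from GENCODE vM21, the 10 genes lay between 128778485 and 130233322 on chromosome 6, a span of 1.455 megabases, 8 on the minus strand and Klre1 and Klrd1 on the plus strand. In order along the chromosome were Klrb1c, Klre1, Klrd1, Klrk1, Klrc2, Klrc1, Klra4, Klra8, Klra9 and Klra7. Klrb1c overlapped Gm44511 on its own strand, and no other member overlapped an annotated gene. All are protein-coding. The family is made of near copies, and reads from a shared stretch can be assigned to the wrong gene. Of all 75-base stretches within the last 500 bases of the annotated transcripts, 29.5% for Klrc1 (chiefly with Klrc2), 23.7% for Klra9 (Klra11-ps, Klra10 and Klra3), 13.7% for Klrb1c (Gm44511, Klrb1a and Klrb1b), 11.01% for Klra7 (Klra13-ps) and 9.76% for Klrc2 (Klrc1 and Klrc3) occurred in another gene. None was shared for Klra4, Klra8, Klrd1, Klre1 or Klrk1. Counts of the first 5 genes are therefore uncertain in these stretches. Only exact matches in GENCODE vM21 were searched, whereas the counts were made with vM19. Near matches were not searched, so the counts of the other genes are not shown to be more certain.

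The promoters of the 4 Klra members are shown because Klra4 and Klra8 had nearly the same pattern over cell classes while Klra7 was also found in T cells. All are 300-base windows from RefSeq on GRCm38.p6, from 250 bases before to 50 after the annotated start and written 5′ to 3′ on the gene's strand. Where a gene had more than 1 annotated start, the one with the highest coordinate is shown. Capitals mark the stretches of 10 or more bases that occurred in all 4 windows.
Klra4, chr6:130067222-130067521, minus strand: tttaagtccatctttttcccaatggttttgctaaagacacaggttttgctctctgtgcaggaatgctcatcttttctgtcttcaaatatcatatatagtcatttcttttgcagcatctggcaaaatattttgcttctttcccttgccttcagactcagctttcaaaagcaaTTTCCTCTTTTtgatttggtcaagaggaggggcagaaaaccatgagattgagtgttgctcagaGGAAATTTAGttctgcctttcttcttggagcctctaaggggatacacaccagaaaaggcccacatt
Klra8, chr6:130129849-130130148, minus strand: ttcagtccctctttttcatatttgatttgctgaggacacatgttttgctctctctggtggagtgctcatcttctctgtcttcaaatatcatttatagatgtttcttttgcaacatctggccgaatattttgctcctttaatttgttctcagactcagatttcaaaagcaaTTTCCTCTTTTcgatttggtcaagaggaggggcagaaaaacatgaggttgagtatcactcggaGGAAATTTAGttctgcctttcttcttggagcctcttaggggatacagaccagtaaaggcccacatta
Klra7, chr6:130233273-130233572, minus strand: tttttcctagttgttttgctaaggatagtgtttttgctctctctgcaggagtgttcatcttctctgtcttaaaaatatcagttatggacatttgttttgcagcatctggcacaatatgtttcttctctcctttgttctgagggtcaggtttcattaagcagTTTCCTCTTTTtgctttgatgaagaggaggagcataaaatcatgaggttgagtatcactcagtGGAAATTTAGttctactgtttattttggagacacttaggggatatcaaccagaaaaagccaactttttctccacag
Klra9, chr6:130193063-130193362, minus strand: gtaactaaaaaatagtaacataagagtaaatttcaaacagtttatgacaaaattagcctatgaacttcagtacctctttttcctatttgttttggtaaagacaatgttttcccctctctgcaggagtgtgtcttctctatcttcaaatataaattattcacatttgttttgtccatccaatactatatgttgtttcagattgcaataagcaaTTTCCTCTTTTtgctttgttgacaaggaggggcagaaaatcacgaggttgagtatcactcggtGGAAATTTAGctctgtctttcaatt
The shared stretches were TTTCCTCTTTT, found in 0.0944% of the 32851 mouse promoter windows, and GGAAATTTAG, found in 0.0578%. They lay in the same order in all 4 genes, and in Klra9 both lay farther downstream relative to the annotated start than in the other 3. Aligned without penalty at the ends, Klra4 and Klra8 were identical at 86.6% of aligned positions and Klra4 and Klra9 at 71.9%. Klra7 was identical to Klra8 at 80.6%, to Klra4 at 80.1% and to Klra9 at 75.6%. Among 3 short motifs searched on both strands, the RUNX core TGTGGT occurred in 6 of the 13 promoter windows of the members. These windows belonged to 5 members, Klrb1c, Klrc1, Klrc2 (2 overlapping windows), Klre1 and Klrk1, and 16.8% of all windows held the string. The ETS-type string GGAAGT was found in 1 of the 13 (Klrb1c) and in 23.8% of all windows. The T-box string TCACAC was found in 2 of the 13 (both of Klre1) and in 14.5% of all windows. None of these 3 exact strings occurred in the Klra windows. Shorter or other forms of the motifs were not searched, and the shared stretch GGAAATTTAG holds GGAA, the first 4 bases of the ETS-type string. These are matches of letters in a window and were not tested against binding.

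After filtering, 4391 BLM cells and 3808 naive cells were kept, with medians of 2380 and 2699.5 UMIs (unique molecular identifiers, 1 per captured transcript) per cell, and 17 cell index numbers occurred in both libraries. Cells were clustered with every Klr gene left out of the variable genes and of the marker lists, so that the members did not place the cells. All class names stand for X-like clusters named from markers. The NK cluster held 139 BLM cells (3.17% of kept cells) and 252 naive cells (6.62%), with medians of 2044 and 2137.5 UMIs. All 8 NK markers were detected in it in both libraries. Gzma had a UMI in 92.1% of BLM and 96.0% of naive NK cells, Il2rb in 99.3% and 99.2%, and Ncr1, the defining NK receptor NKp46, in 51.8% and 64.3%. A Cd3e, Cd3d or Cd3g UMI was present in 7 of 139 and 14 of 252 NK cells. The T-like cells (804 BLM, 680 naive) formed 7 sub-clusters. In 1 of them the best marker list (score 0.83) and the next, effector CD8 T (0.74), were too close to give a name. It is called the Xcl1-led T cells (63 BLM, 72 naive). The sub-cluster named effector CD8 T cells (111 BLM, 51 naive) scored equally for naive CD8 markers. Activated CD4 T cells were named from their leading genes, although another marker list scored higher (1.14 against 0.97). The same held for cDC2 (3.12 against 2.91) and for the smaller of the B clusters (2.44 against 2.36). B cells and neutrophils served as the classes that should lack the members. Over the 10 members together B cells held 8.98 CPM (a gene's UMIs when the UMIs of the same cells are scaled to a total of 1e6) in BLM and 31.4 in naive, and neutrophils 11.2 and 37.5, so the level in cells that should lack them was higher in the naive library.

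NK cells held most of the members' transcripts. Of all UMIs of the 10 genes in kept cells, 64.5% in BLM (2649 of 4108) and 72.4% in naive (5272 of 7277) came from NK cells. The share was highest for the activating Ly49 genes, at 93.9% and 91.0% for Klra4 and 92.1% and 90.1% for Klra8. It was lowest for Klrd1, at 24.4% in BLM and 36.3% in naive, and for Klrk1, at 35.4% and 48.0%. Over 21 classes NK cells had the highest level of 10 of 10 members in BLM, with an interval apart from the next class for 9, Klrc1 being the exception. In naive, NK cells were highest for 9 of 10, all 9 apart from the next class, and Xcl1-led T cells were ahead for Klrc1 (503 against 405 CPM, with overlapping intervals).

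**Figure D1:**
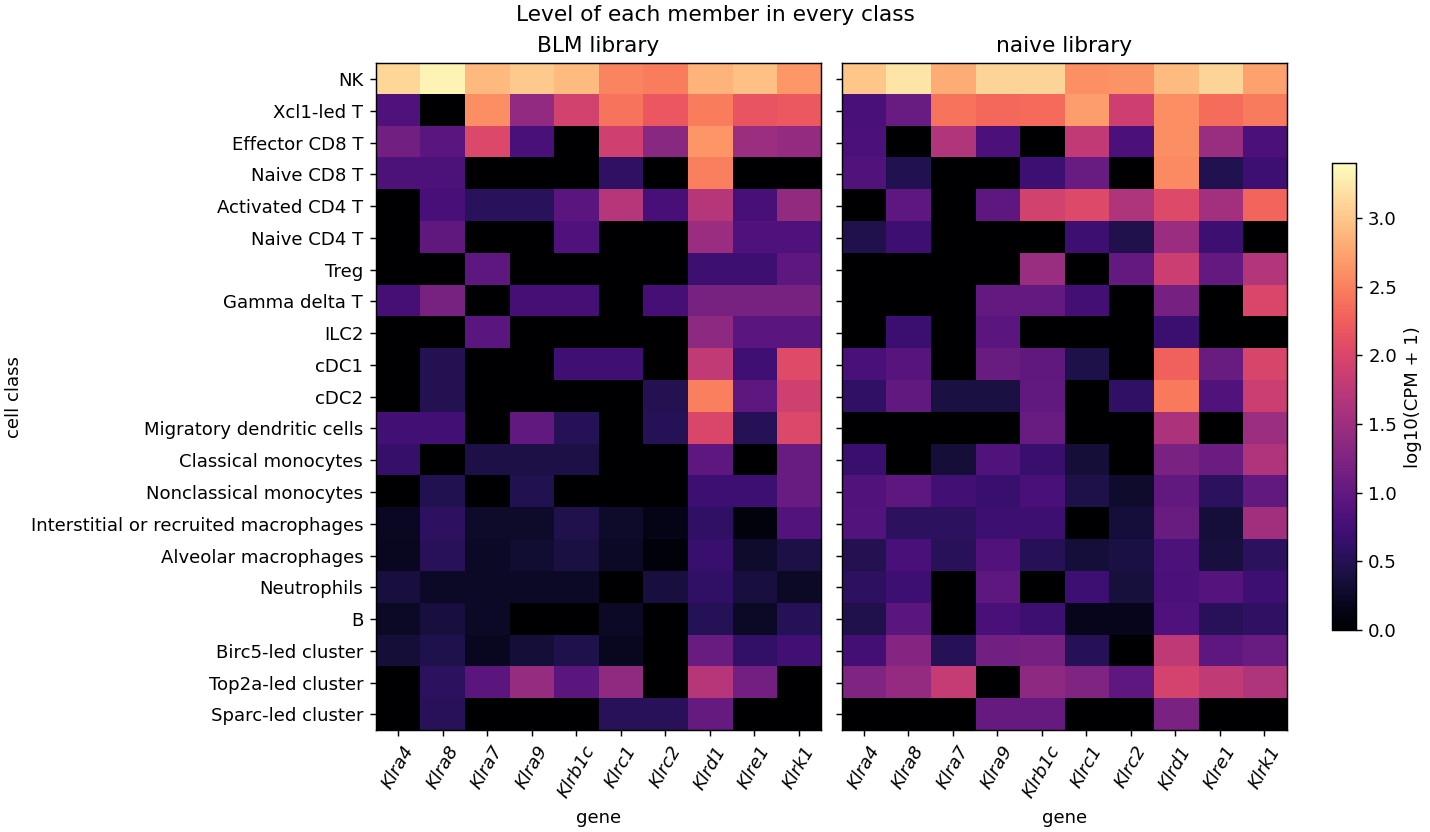
Level of the 10 members (columns) in 21 cell classes (rows) of the BLM library (left) and the naive library (right), as log10 of CPM plus 1 on the colour scale. NK cells were bright for all members, Xcl1-led T cells for most members but not for Klra4 and Klra8, and CD8 T cells, cDC1 and cDC2 for Klrd1.

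Within NK cells Klra8 had the highest level in both libraries, followed by Klra4 in BLM, whereas in naive Klra9, Klre1 and Klrb1c lay above Klra4. UMI counts are molecules rather than reads along a transcript, so levels of different genes are compared here without a length scale. Klra8 had 642 UMIs in BLM NK cells (2149 CPM, 1986 to 2321) and 948 in naive NK cells (1660 CPM, 1556 to 1769). The other activating Ly49 gene, Klra4, had 388 and 556 UMIs, or 1299 CPM (1173 to 1434) and 974 CPM (895 to 1058). Both were higher in BLM, and neither pair of intervals overlapped. For the inhibitory Ly49 genes the levels were 799.9 CPM (702 to 908) and 636 CPM (572 to 705) for Klra7, and 1058 CPM (944 to 1181) and 1266 CPM (1176 to 1362) for Klra9. Klra7 was thus higher in BLM and Klra9 lower. Klrb1c had 833 CPM in BLM and 1250.5 in naive, and Klre1 894 and 1252. Both were lower in BLM, with intervals that did not overlap. The CD94 chain Klrd1 had 733 CPM in BLM (219 UMIs) and 819.7 in naive (468 UMIs), and its partner chains Klrc1 and Klrc2 had 341 and 298 CPM in BLM against 405 and 433 in naive. Klrk1 had 462 CPM in BLM (138 UMIs) and 538 in naive (307 UMIs).

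**Figure D2:**
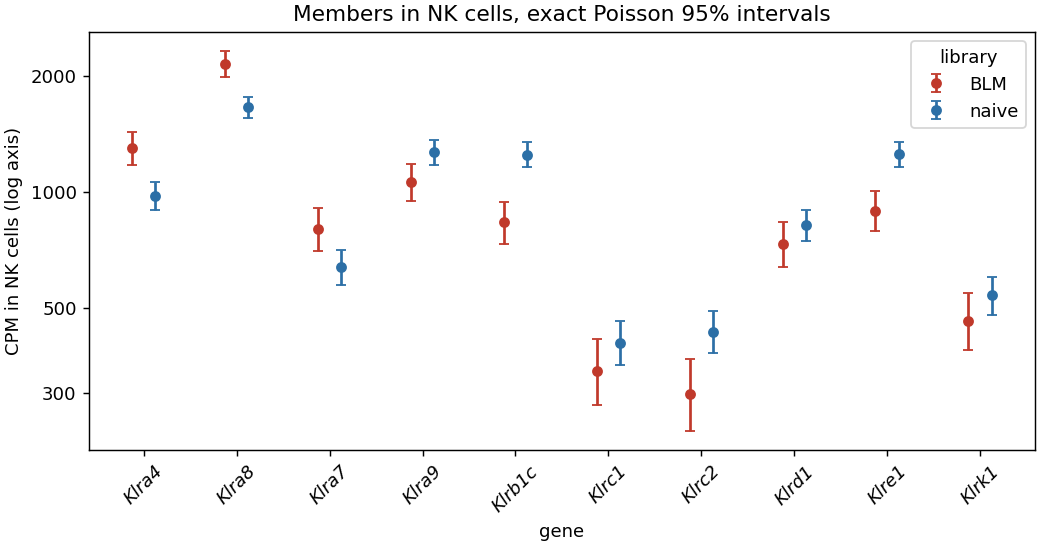
CPM of each member in NK cells of the BLM library (red, 139 cells) and the naive library (blue, 252 cells) on a log axis, with exact Poisson 95% intervals. Klra4, Klra8 and Klra7 lay higher in BLM, and the other 7 genes lay lower.

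On the log2 scale the BLM over naive ratio of the 10 members together in NK cells was −0.06 (−0.13 to 0.01). The members themselves moved in both directions within a range of less than 2-fold. Those with an interval above 0 were Klra4 at 0.42 (0.22 to 0.60), Klra8 at 0.37 (0.23 to 0.52) and Klra7 at 0.33 (0.09 to 0.57). The interval lay below 0 for Klrb1c at −0.59 (−0.80 to −0.38), Klrc2 at −0.54 (−0.90 to −0.18), Klre1 at −0.49 (−0.70 to −0.28) and Klra9 at −0.26 (−0.46 to −0.07). It included 0 for Klrc1 (−0.25), Klrk1 (−0.22) and Klrd1 (−0.16). With NK cells taken as cells with an Ncr1 UMI and no CD3 UMI, Klra9 turned to 0.0499 and Klra4 was 0.11. None of the 10 members was 2-fold lower in BLM, where 6.68% of the 5588 genes with 20 or more UMIs were, and none was 2-fold higher, where 2.02% were. The median of the members was −0.23, and that of the 5588 genes was −0.11.

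The members differed in how their UMIs were spread over NK cells. The Klra genes were detected in about the same moderate share of NK cells in both libraries. Klra8, Klra4 and Klra9, but not Klra7, had many UMIs in the cells that had them. Klra8 was found in 57.6% of BLM NK cells (48.9 to 65.9) and 59.1% of naive NK cells (52.8 to 65.3), and its positive cells had a mean of 8.03 and 6.36 UMIs. In BLM 59 NK cells had no Klra8 UMI while 27 had 10 or more, up to 32. In naive 103 had none while 31 had 10 or more, up to 35. Klra4 was found in 52.5% and 54.0%, Klra7 in 53.2% and 54.4%, and Klra9 in 56.8% and 61.1%, with 2.65 to 5.32 UMIs per positive cell. Klra7 had the fewest, a mean of 3.23 in BLM and 2.65 in naive, the latter below Klrb1c (3.20) and Klre1 (3.16) in naive. By contrast Klre1 was found in 77.7% of BLM and 89.7% of naive NK cells and Klrb1c in 76.3% and 88.5%, although their summed levels were below those of Klra8. Their positive cells had 2.35 to 3.20 UMIs on average, and 1 cell in all, in naive, reached 10 UMIs for each gene. Klrd1 was found in 72.7% and 80.6%, Klrk1 in 55.4% and 67.5%, Klrc2 in 45.3% and 55.2%, and Klrc1 in 35.97% and 32.5%. Thinned to 1000 UMIs per cell, with 2 BLM and 1 naive NK cells left out as too shallow, the shares were 54.9% and 69.3% for Klrb1c, 57.0% and 70.2% for Klre1, and 54.8% and 52.4% for Klra8. In B cells the thinned share of a member was at most 0.287% in BLM and 0.743% in naive (median depth 1654 and 1957 UMIs).

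**Figure D3:**
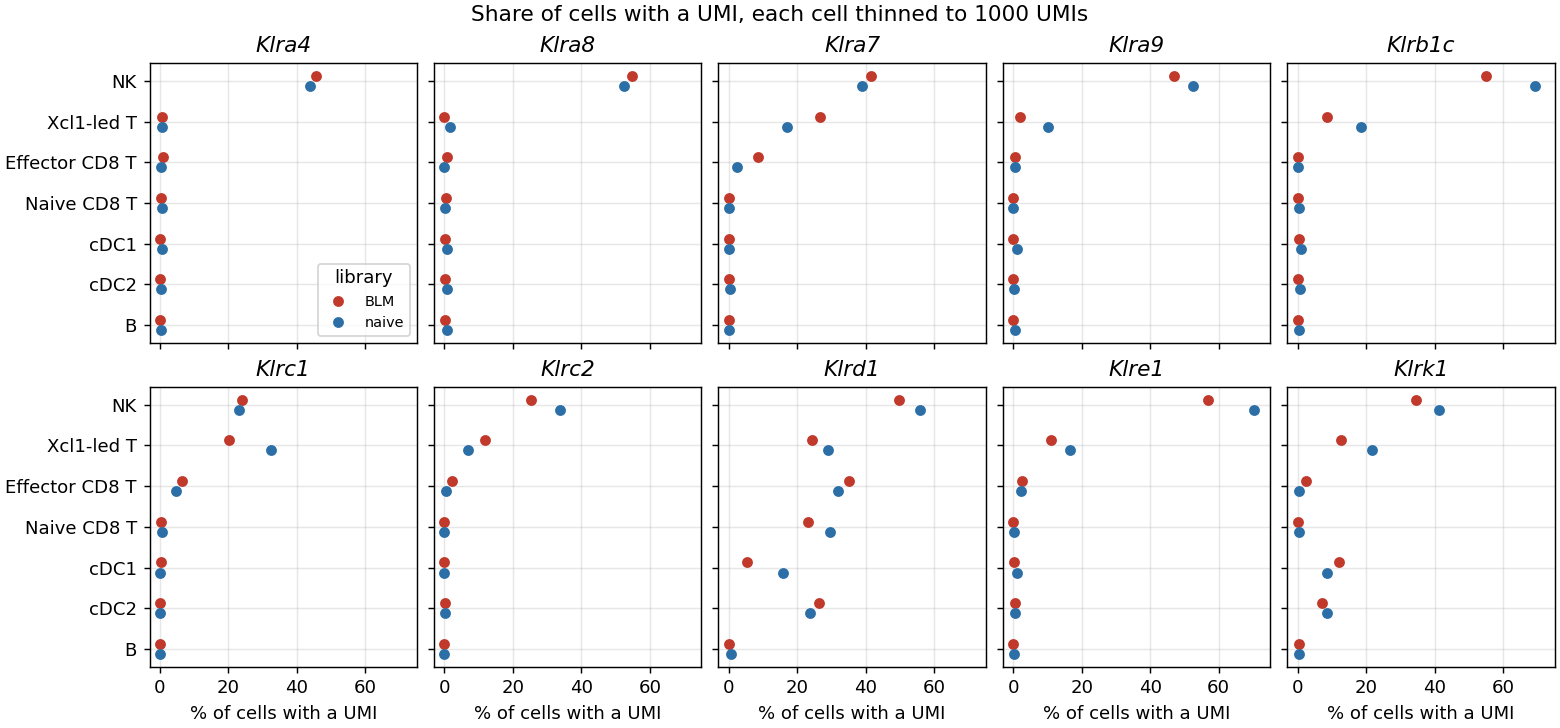
Share of cells with a UMI of each member (one panel per gene) in 7 classes, each cell thinned to 1000 UMIs, for the BLM library (red) and the naive library (blue). Klra4 and Klra8 stood out in NK cells, Klra7 also in Xcl1-led and effector CD8 T cells, Klrd1 in CD8 T cells, cDC1 and cDC2, and Klrk1 in both dendritic cell classes. Neither gene was particular to these classes. In CPM, Klrk1 was higher in Xcl1-led T cells (157 in BLM, 287 in naive) than in cDC1 (110.4 and 94.3), as was Klrd1 (295 and 390 against 61.6 and 182).

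Most NK cells carried more than 1 of the 4 Klra members. After thinning, 64.0% of BLM NK cells (55.6 to 72.2, n = 137) and 64.8% of naive NK cells (58.7 to 70.8, n = 251) had 2 or more. No Klra member was seen in 16.5% of BLM and 12.01% of naive NK cells, and all 4 in 7.84% and 5.15%. Without thinning, 72.7% and 79.0% had 2 or more. Klra8 was more often found in NK cells that had Klra4, as shares of cells. In BLM, 74.0% of the 73 NK cells with a Klra4 UMI also had Klra8 (62.4 to 83.5), against 39.4% of the 66 without (27.6 to 52.2), at median depths of 2109 and 1968.5 UMIs. In naive the shares were 66.2% of 136 (57.6 to 74.1) and 50.9% of 116 (41.4 to 60.3), at 2116.5 and 2198 UMIs. The 2 intervals did not overlap in BLM and did in naive. Klra7 was likewise found in 67.1% of BLM cells with Klra4 and 37.9% of those without, and in 64.0% and 43.1% in naive. Klra9 was found in 60.3% of BLM cells with Klra4 and 53.0% of those without, and in 58.1% and 64.7% in naive, with overlapping intervals. For the CD94 partners, Klrc2 was found in 42.7% of naive NK cells with Klrc1 (31.8 to 54.1) and 61.2% of those without (53.4 to 68.5), and in 40.0% and 48.3% in BLM. The intervals overlapped in both libraries.

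**Figure D4:**
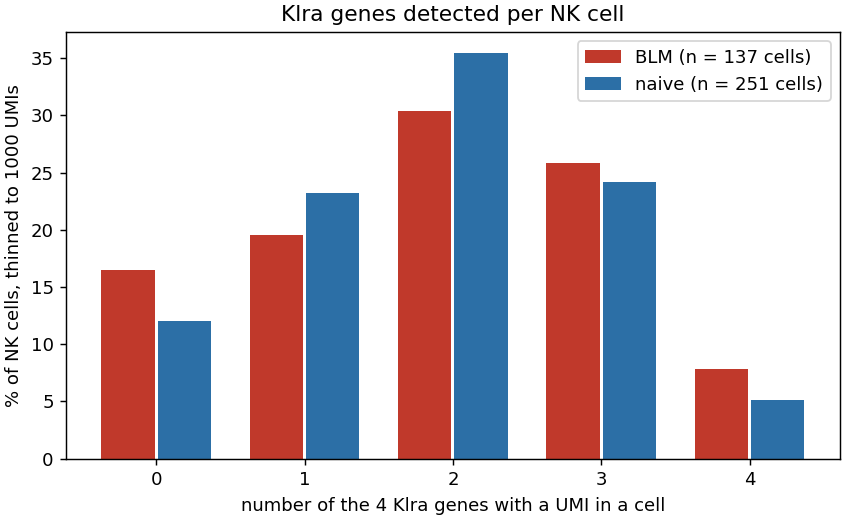
Percent of NK cells with a UMI of 0, 1, 2, 3 or 4 of the genes Klra4, Klra7, Klra8 and Klra9, each cell thinned to 1000 UMIs, for BLM (red, 137 cells) and naive (blue, 251 cells). In both libraries 2 genes per cell was the most frequent class, at 30.3% and 35.5%.

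All 10 members were more than 2-fold higher in NK cells than in T-like cells in both libraries, where 8.45% of 8099 genes in BLM and 9.42% of 8342 genes in naive were. The ratio of the summed level was 24.7-fold in BLM (log2 4.63, 4.51 to 4.75) and 19.4-fold in naive (log2 4.28, 4.18 to 4.38). It was widest for the activating Ly49 genes. Klra8 had 13 UMIs in 804 BLM T-like cells and 6 in 680 naive T-like cells, and was 346-fold and 500.5-fold higher in NK cells. Klra4 had 9 and 6 UMIs, and was 302-fold and 294-fold higher. At the other end were Klrd1, 4.201-fold and 4.05-fold, and Klrc1, 7.60-fold and 5.63-fold.

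Among T cells the summed level of the members was highest in the Xcl1-led sub-cluster, at 1513 CPM in BLM and 2185 in naive. Effector CD8 T cells held more member UMIs in BLM (289 against 251) and fewer in naive (98 against 426). Klrd1 was higher in effector CD8 T cells in BLM (450 against 295 CPM) and about equal in naive (391 against 390). Cd3e had a UMI in 76.2% and 70.8% of the Xcl1-led cells. Of 63 BLM cells 15 had a Cd8a or Cd8b1 UMI, 17 a Trdc UMI and 1 a Cd4 UMI, and of 72 naive cells 12, 18 and 5. Ncr1 was found in 4.76% and 11.1% and Gzma in 11.1% and 12.5%. Klra7, the inhibitory Ly49G, was found in 25 of 63 BLM cells (39.7%, 391.7 CPM) and 19 of 72 naive cells (26.4%, 256 CPM), and the NK level was 2.04-fold and 2.48-fold higher. Klra4 and Klra8 had between 0 and 2 UMIs each there in either library. Klrc1 had 43 UMIs in 20 BLM cells and 98 in 34 naive cells, Klrd1 49 and 76, Klrk1 26 and 56, Klre1 24 and 44, Klrb1c 14 and 43, and Klrc2 25 and 15. The activating Ly49 genes were thus near 0 in this sub-cluster in both libraries, while Klra7 and the CD94 and NKG2 chains were present in both. Klra9, the other inhibitory Ly49 gene, had 4 UMIs in 3 BLM cells and 41 in 10 naive cells, 14 of them in 1 cell. Klr genes were among the leading genes of this sub-cluster although none was used to build it.

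Between the libraries the Xcl1-led T cells had a lower summed level in BLM (log2 −0.53, −0.76 to −0.30). Of the 8 members with 20 or more UMIs there, Klra9 (−3.12, −5.07 to −1.66) and Klrb1c (−1.39, −2.37 to −0.49) were 2-fold lower in BLM, against 6.36% of 3081 genes, and none was 2-fold higher, against 2.89%. Klrc1 (−0.96) and Klrk1 (−0.87) also had intervals below 0, and Klra7 had one above 0 (0.61, 0.06 to 1.17).

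In the effector CD8 T cells Klrd1 was the main member, with a UMI in 68.5% of BLM cells (177 UMIs) and 68.6% of naive cells (70 UMIs), or 449.7 and 391 CPM. Klra7 had 41 UMIs in 20 of 111 BLM cells (18.0%, 11.4 to 26.4) and 8 in 2 of 51 naive cells (3.92%, 0.478 to 13.5). The 2 intervals overlapped, and the log2 ratio of the level was 1.22 (0.11 to 2.52). The median depth was 3489 and 3504 UMIs. Thinned to 1000 UMIs, Klra7 was seen in 8.46% and 2.55% of cells. Klrc1 was found in 13.5% and 9.80%. Over the 10 members the level was 734 CPM in BLM and 548 in naive (log2 0.42, 0.09 to 0.77). Without integration of the libraries this class held 167 and 82 cells, and its ratio turned to −0.89. Of the 3 members with 20 or more UMIs, Klra7 was 2-fold higher in BLM, against 4.73% of 4102 genes, and none was 2-fold lower, against 5.61%. In naive CD8 T cells Klrd1 was close to the only member, with 106 of 111 member UMIs in BLM and 181 of 195 in naive, and a UMI in 42.3% and 54.0% of cells.

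**Figure D5:**
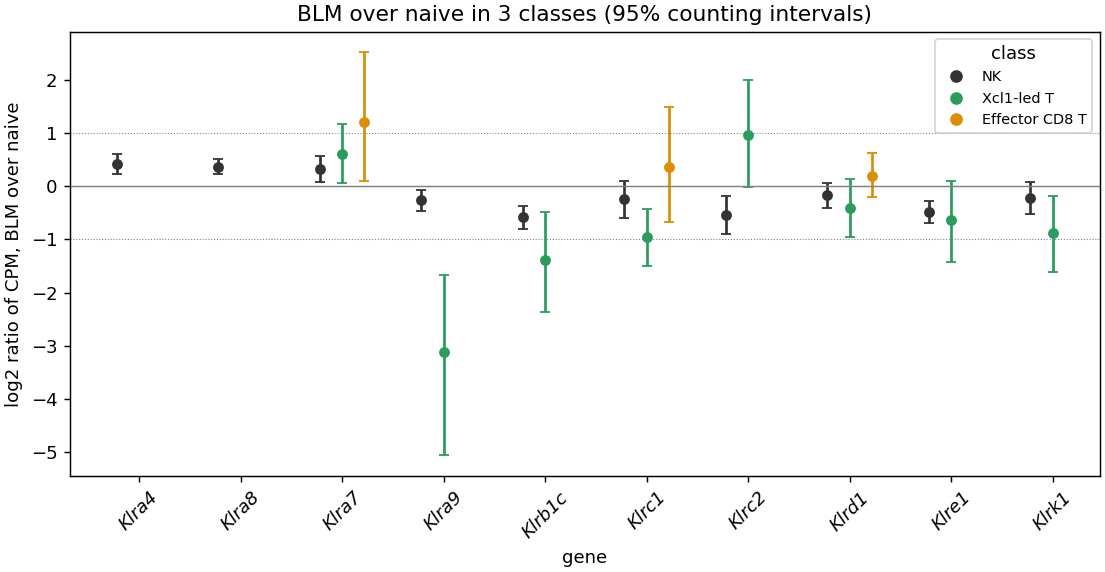
Log2 ratio of CPM, BLM over naive, for each member in NK cells (black), Xcl1-led T cells (green) and effector CD8 T cells (orange) with 95% counting intervals, shown where a gene had 20 or more UMIs over both libraries and at least 1 in each. Dotted lines mark 2-fold, and all NK values lay between them.

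Among the CD4 and gamma delta classes, activated CD4 T cells had the highest summed level in both libraries. In naive it was above the 548 CPM of effector CD8 T cells. Activated CD4 T cells had 59 member UMIs in 170 BLM cells and 71 in 49 naive cells, 149 and 599 CPM. Of these Klrk1 had 10 and 24 UMIs, the latter in 9 cells, and a log2 ratio of −3.0 (−4.23 to −1.88). In gamma delta T cells Klrk1 had 3 UMIs in BLM and 21 in 12 naive cells (−2.74, −5.13 to −0.997). Tregs had 6 member UMIs in 77 BLM cells and 18 in 30 naive cells. Naive CD4 T cells had 55.9 and 45.2 CPM over all members. Group 2 innate lymphoid cells (ILC2) had 46.1 and 15.1 CPM.

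Outside the lymphocytes, Klrd1 and Klrk1 were found in dendritic cells. In cDC2 Klrd1 had 145 UMIs in 49 of 77 BLM cells (63.6%) and 181 in 68 of 105 naive cells (64.8%), at 308 and 278 CPM. Its level there was near that in naive CD8 T cells (308 and 373 CPM). In cDC1, the dendritic cells that cross-present antigen, Klrd1 was lower in BLM, at 61.6 CPM (27.3% of 55 cells) against 182 CPM (61.0% of 82 cells), a log2 ratio of −1.56 (−2.21 to −0.95). The median depth of these cells was 8194 UMIs in BLM and 6688.5 in naive, and after thinning the shares were 5.37% and 15.9%. Klrk1 had 110.4 and 94.3 CPM in cDC1 (56.4% and 41.5% of cells) and 78.6 and 73.7 CPM in cDC2, and both ratios had intervals that included 0. In migratory dendritic cells of BLM Klrd1 had 44 UMIs and Klrk1 46 in 69 cells, and the naive library had 15 such cells with 4 and 3 UMIs. Klrc1 and Klrc2, whose products pair with CD94, held 0 to 2 UMIs each in cDC1 and cDC2. The NK marker Ncr1 had 0 UMIs in both classes in both libraries, and Klra8 had 1 to 6 UMIs. Klrk1 was also found in monocytes, with 6 UMIs in BLM and 36 in naive classical monocytes (10.3 and 44.1 CPM), and in interstitial or recruited macrophages (6.53 and 33.5 CPM). The summed level of the members in B cells was lower in BLM as well (log2 −1.80, −2.83 to −0.90), and the part of free RNA in the macrophage, monocyte and alveolar macrophage values was not tested.

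The other genes of the pathway are given for NK cells, BLM over naive, beside 5588 genes of which 2.02% were 2-fold higher and 6.68% 2-fold lower, with a median of −0.11. At these shares the counts of the lists below are near the background and are no result about the lists. Among the 16 other Klr genes 10 had 20 or more UMIs, and 1 was 2-fold higher in BLM: Klra5, with 29 UMIs in BLM and 12 in naive (log2 2.21, 1.19 to 3.31). Klrb1b, an inhibitory receptor of the NK1.1 family, had 636 and 508 CPM (0.32, 0.05 to 0.59), and Klri2, an activating partner of Klre1, 448 and 553 CPM (−0.30, −0.61 to −0.01). Klri1, its inhibitory partner, had 1 and 5 UMIs. Klrb1b was also at 276 CPM in BLM and 514 in naive cDC1. Of the 14 adaptor and signalling genes with 20 or more UMIs, 0 of 14 were past 2-fold, with a median of −0.13. Fcer1g (−0.20) and Lck (−0.46) had intervals below 0. Tyrobp (DAP12), which carries the signal of activating Ly49 receptors, had 2574 and 2639 CPM, and Hcst (DAP10), the adaptor of NKG2D, 415 and 424 CPM. Of 21 measured maturation genes 0 were past 2-fold, with a median of −0.07. Ly6c2 (0.55), Xcl1 (0.77), Ifng (0.73) and Emb (0.45) had intervals above 0, and those below 0 included Spn (−0.62), Eomes (−0.44), Ncr1 (−0.36), Prf1 (−0.33) and Gzma (−0.07). Among the ligand genes, the MHC class I genes H2-K1 and H2-D1 were abundant, at 3139 and 4163 CPM in BLM NK cells and 3522 and 4464 in naive NK cells. Their log2 ratios were −0.17 and −0.10, with intervals below 0. The NKG2D ligand genes were mostly rare in these leukocytes. The NKG2D ligand genes Raet1d and Raet1e had 18 and 29 UMIs over all BLM cells and 9 and 22 over all naive cells, and H60b had 0 and 3. Ulbp1 had 288 UMIs over all BLM cells and 156 over all naive cells (log2 0.56, 0.27 to 0.85). Of these, 118 in BLM and 41 in naive lay in the Birc5-led cycling cluster, which held 1597048 and 867347 UMIs in all. H2-T23, which encodes Qa-1, had 375 CPM in BLM NK cells and was found in all classes, up to 676 CPM in BLM migratory dendritic cells.

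Patterns over classes were compared by Pearson correlation of log2(CPM + 10) over 40 profiles, which were 20 classes with 20 or more cells in each of 2 libraries. The profiles of one library share its depth and background, and the coefficients are a description. Klre1 (0.98) and Klrc2 (0.96) were closest to the mean of the members, and Klrd1 (0.74) and Klrk1 (0.81) the farthest. Klra4 and Klra8 had r = 0.97 with each other, whereas Klra8 and Klra7 had 0.69 and Klra8 and Klrd1 0.49. Outside the Klr family the most similar genes were Ncr1 (0.94), Tbx21 (0.92), Il12rb2 (0.90), Prf1 (0.90), Itga2 (0.90), Xcl1 (0.89), Eomes (0.87), Ccl5 (0.86), Serpinb9 (0.85) and Adamts14 (0.84). Most are known NK cell genes, among them the transcription factors Tbx21 (T-bet) and Eomes and the cytotoxic protein gene Prf1 (perforin).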

How the data were processed

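Living CD45+ lung cells were analysed on the BD Rhapsody system. UMI counts, not normalised, were deposited by the authors as a table for each library. Per the file headers they came from the BD WTA Rhapsody pipeline 1.8 with GRCm38 and GENCODE vM19, after error correction of UMIs. Totals were 22490782 UMIs over 4714 BLM barcodes and 18019004 over 4062 naive barcodes. The authors filtered in SeqGeq and used Seurat, and their thresholds and cluster names were not used here. A gene absent from a table was set to 0. Cells needed at least 200 genes and no more than 15% of UMIs from mitochondrial genes, and the 3% with the highest Scrublet scores (scanpy 1.11.5) were left out as doublets, because the automatic calls came to 0.177% in BLM and 1.55% in naive.

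The cells of both libraries were joined by anchors in Seurat 5.3.0 under R 4.3.3 (canonical correlation, 2000 variable genes without Klr genes, 30 dimensions, resolution 0.5). Clusters with Cd3e in 50% or more of cells were clustered again with 20 dimensions. Names came from listed markers, and other names would give other values. UMIs were summed per class and library and given as CPM with exact Poisson intervals. Shares had exact Clopper-Pearson intervals, and log2 ratios had exact conditional intervals, all at the 95% level. Shares after thinning are exact means over draws of 1000 UMIs per cell. A 2-fold count used genes with 20 or more UMIs over both sides. The ratio intervals were tried on simulated counts drawn independently, as the intervals assume. The simulation had no clumping of UMIs in cells and no differences between mice, so it does not show their coverage in these data.

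The members and gene lists were chosen with earlier results of these data known. The text names the 10 members, genes of the lists for other Klr genes, adaptors, ligands and NK maturation, marker genes, and the 10 most similar genes with 200 or more UMIs. The promoter motifs and gene pairs were chosen after values were seen. One listed gene is not reported here.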

Additional observations from a re-analysis of the deposited data

Results flagged for a closer look

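A member was singled out where its BLM over naive interval lay above 0 in 1 class and below 0 in another, among classes with 20 or more UMIs of it over both libraries. These differences between classes were not tested, and each rests on 1 library per group. Klra7 had log2 ratios of 0.33 in NK cells, 0.61 in Xcl1-led T cells and 1.22 in effector CD8 T cells, but −1.69 in alveolar macrophages and −3.05 in the Top2a-led cycling cluster. The last rests on 3 BLM UMIs and 23 naive UMIs in 3 cells. The alveolar macrophage value rests on 5 BLM and 15 naive UMIs, or 0.76 and 2.47 CPM. Over all 10 members alveolar macrophages held 13.6 and 31.4 CPM, near the 8.98 and 31.4 CPM of B cells. Klra8 had 0.37 in NK cells and −1.11 in alveolar macrophages, where its level was 2.44 CPM in BLM and 5.27 in naive. B cells, which should lack both genes, had 2 Klra8 UMIs in BLM and 16 in naive, and 1 and 0 Klra7 UMIs. Klrk1 had 1.77 in migratory dendritic cells, where the naive library held 15 cells and 3 UMIs, and −0.87 in Xcl1-led T cells, −3.0 in activated CD4 T cells, −2.74 in gamma delta T cells, −2.10 in classical monocytes and −2.36 in interstitial or recruited macrophages. In B cells Klrk1 had 3 and 6 UMIs.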

How the results depend on the processing

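Alternatives changed the class borders (Klr genes kept, no doublet filter, a mitochondrial limit of 10%, resolution 0.3 or 0.8, no integration, lineage transcripts in place of clusters, NK cells with a CD3 UMI left out), the scaling, or thinning. Of 192 values under an alternative, 181 stayed within the main interval or count. Resolutions 0.3 and 0.8 returned NK clusters of the same size (139 BLM and 252 naive cells) and the same NK values. Their agreement with the main NK values is therefore not evidence of stability. The direction turned for 2 of the 192 values. The summed level in effector CD8 T cells was −0.89 without integration, where that class grew to 167 BLM and 82 naive cells, and Klra9 in NK cells was 0.0499 with lineage transcripts (76 BLM and 171 naive NK cells), where Klra4 was 0.11. The cause was not tested. NK over T-like cells moved to 5.05 in BLM and 4.67 in naive with lineage transcripts, and in BLM to 4.81 with the mean of the CPM of each cell and 4.76 with thinned cells. The share of NK cells with 2 or more Klra members was 72.7% in BLM and 79.0% in naive without thinning, and 57.5% in naive with lineage transcripts. Without the minimum of 20 UMIs, 36.5% of genes were past 2-fold between BLM and naive NK cells, against 8.70% with it. No effector CD8 class was found at resolution 0.3 or with the 10% limit. No paired analysis was possible because each group was 1 library. At the depth of NK cells a floor of 3 counts, used for a count of 0, is 10.04 CPM in BLM and 5.25 in naive.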
